A study of Mus musculus with 22 samples.

Results

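The cells described here are those that the authors' deposited cell table assigns to the cluster named Head Mesoderm, 1614 of 77683 cells in 25 named clusters. They came from gastruloids, aggregates of mouse embryonic stem cells that form derivatives of the germ layers in suspension culture. Every group was wild type, of the single line E14Tg2A, seeded at 300 cells per well and given 3 µM CHIR99021, a GSK3 inhibitor that activates Wnt signalling, from 48 h of culture. No group was left without CHIR99021. Gastruloids were collected at day 3, 3.5, 4, 4.5 and 5 in an experiment without gastruloid barcodes (10X, days 3 and 4) and in 3 MULTI-seq experiments, in which lipid-anchored DNA barcodes mark the gastruloid of each cell. MULTI-seq 1 held day 5, MULTI-seq 2 days 4 and 4.5 beside pools of days 3 and 3.5 that were not analysed here, and MULTI-seq 3 all 5 ages, with days 3.5 and 4 in one pool and days 4.5 and 5 in another. A gastruloid lacks extraembryonic tissue and most of the anterior nervous system, and its cells are cultured cells, not tissue taken from an embryo.

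Head mesoderm is the loose, unsegmented mesoderm that lies beside the developing brain, in front of the somites. It gives rise to head muscle and, with neural crest, to part of the skull and the connective tissue of the head. Twist1, Prrx1, Prrx2, Foxc1, Foxc2 and members of the Alx and Eya families are transcription regulators used in it, while the neighbouring cardiopharyngeal mesoderm, which feeds the heart and the pharyngeal arches, uses Isl1, Tbx1, Gata6 and Mef2c. Mesoderm of the trunk switches on Hox genes from the front to the back of each cluster, whereas mesoderm of the head carries little Hox expression.

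The promoters of 2 genes on which the description turns are shown as 250 bases before the RefSeq start on GRCm38.p6, the same build as mm10, with each GC box (GGGCGG on either strand, the site of Sp1-type factors) in capitals. Twist1 is shown as the marker with its highest level in these cells, and Cxcl12 as a gene that separated day 5 from both earlier days. Both lie on the plus strand, Twist1 at chr12:33957421-33957670 and Cxcl12 at chr6:117168285-117168534.
Twist1: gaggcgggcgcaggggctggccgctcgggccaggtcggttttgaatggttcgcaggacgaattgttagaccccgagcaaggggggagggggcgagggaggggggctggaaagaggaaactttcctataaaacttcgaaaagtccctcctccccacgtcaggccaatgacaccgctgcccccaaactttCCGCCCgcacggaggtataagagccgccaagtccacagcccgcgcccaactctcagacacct
Cxcl12: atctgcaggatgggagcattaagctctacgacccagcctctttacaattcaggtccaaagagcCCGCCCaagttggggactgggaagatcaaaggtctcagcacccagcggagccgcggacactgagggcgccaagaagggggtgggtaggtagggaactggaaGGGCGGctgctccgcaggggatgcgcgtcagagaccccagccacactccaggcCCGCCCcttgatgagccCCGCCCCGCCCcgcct
The Twist1 sequence held 1 GC box, 1 CCAAT box (CCAAT) and 1 TATA box (TATAAA), and the Cxcl12 sequence held 5 GC boxes, of which the last pair overlap. Of 32851 RefSeq promoters, cut to the same length and searched on both strands, 32.7% held a GC box, 33.8% CCAAT and 12.4% TATAAA. The E-box CAGATG was in 14.4% of promoters and the forkhead motif GTAAACA in 3.17%, with 0 matches in these 2 sequences.

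Levels are given as CPM, the counts of a gene scaled to a common total of the UMIs summed over the cells named. The cells were clustered on gene expression, so their levels beside other clusters are a description without a test. Twist1, a basic helix-loop-helix factor of head mesenchyme (gene at chr12:33957671-33959829), stood at 274 CPM, the highest of the 25 types, with 233 CPM in Early Anterior PSM (presomitic mesoderm) next. Prrx2, a paired-type homeobox factor of craniofacial mesenchyme, stood at 255 CPM and ranked 5th, below Somites at 509 CPM. Foxc2, a forkhead factor of paraxial and head mesoderm, stood at 65.9 CPM and ranked 6th, below Late Anterior PSM at 276 CPM. So of the 3 markers only Twist1 was highest in the cluster that carries the name. At least 1 UMI of Twist1 was found in 98.4% of the cells, of Prrx2 in 96.9% and of Foxc2 in 73.2%. All 3 markers were found together in 70.8% of the cells, and 3 of 1614 cells (0.186%) held none of them.

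Alx1, a homeobox factor needed for the mesenchyme of the upper face, had the largest ratio to the next type among genes of at least 50 CPM. It stood at 191 CPM against 53.4 CPM in Late Nascent Mesoderm, a ratio of 3.59, and 81.1% of the cells held a UMI of it. That rank held over all cells, while the ratio of Alx1 was 2.98 without MULTI-seq 3, below the 3.85 of Rspo1, and 1.73 within day 5 of MULTI-seq 3 alone, below the 4.34 of Rspo1. The next genes by that ratio were Rspo1, a secreted enhancer of Wnt signalling, at 62.5 CPM against 21.4 CPM in Caudal Epiblast, and Wls, which carries Wnt proteins to the cell surface, at 369 CPM against 144 CPM in Late Spinal Cord. Among the 20 genes with the largest ratios were also Sfrp1, a Wnt antagonist (472 CPM), Vcan, a matrix proteoglycan (349 CPM), Cdh11, a mesenchymal cadherin (216 CPM), Igfbp5, an insulin-like growth factor binding protein (501 CPM), and Cer1, a Nodal, BMP and Wnt antagonist (207 CPM). Their ratios lay between 1.32 and 1.80. Of the 20 genes, 16 remained highest in these cells without MULTI-seq 3, and Cer1 (ratio 0.866) and Sfrp1 (0.996) were among those that did not. Within MULTI-seq 3 alone, in settings chosen after seeing the data, 18 remained so at day 4, where Cdh11 (0.761) and Igfbp5 (0.9996) did not and Twist1 ranked 2nd, and 17 at day 5, with Cer1 (0.932) among those that did not. Of the 20 genes with the largest ratios in each of these settings, 10, 10 and 6 were among the 20 over all cells.

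**Figure D1:**
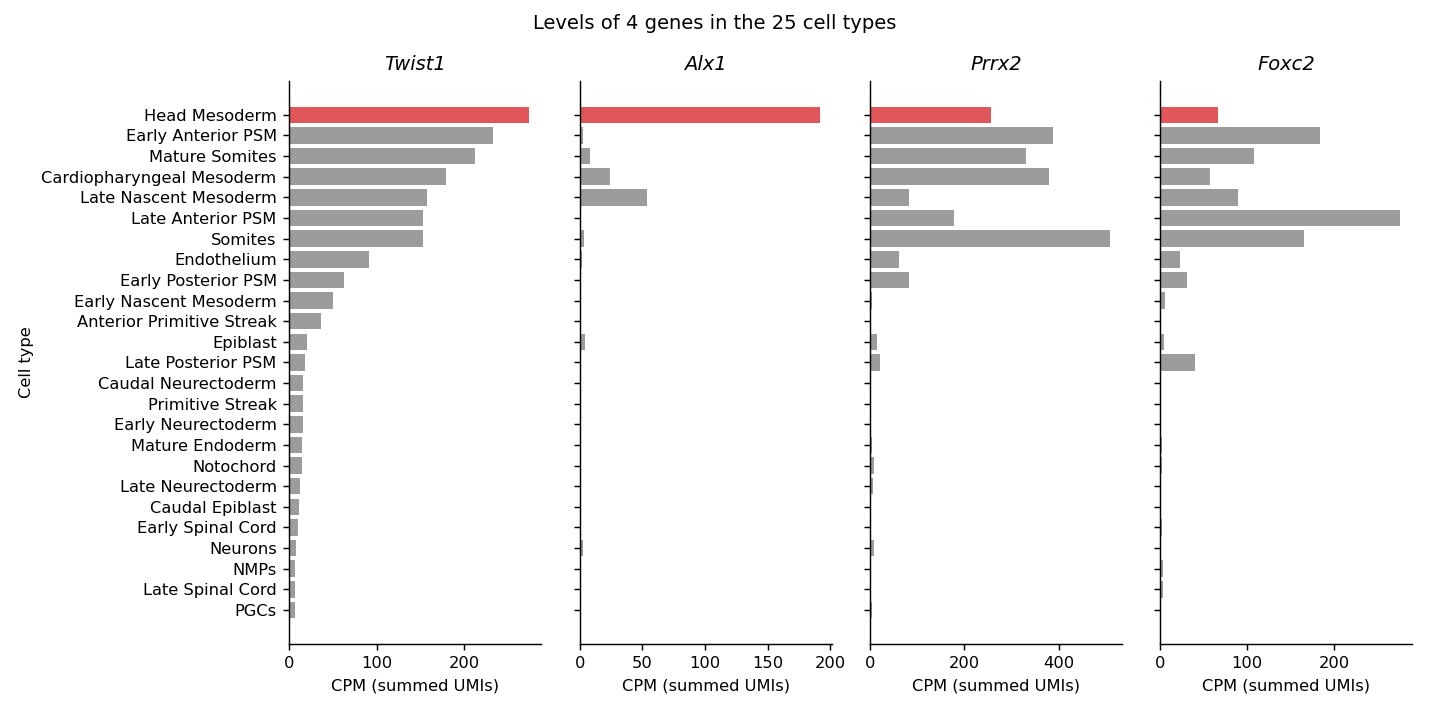
Bars give the level of Twist1, Prrx2, Foxc2 and Alx1 in CPM of the UMIs summed over all cells of each of the 25 types, with Head Mesoderm in red. Twist1 and Alx1 were highest in Head Mesoderm, whereas Prrx2 ranked 5th and Foxc2 6th.

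The 18 genes of a head mesoderm list summed to 601 CPM, the highest sum of any type, and 13 of the 18 were among the top 3 types. The genes highest in these cells included Alx1, Snai2, an inducer of mesenchymal shape (53.5 CPM), and Cyp26c1, a retinoic acid degrading enzyme, which was barely detected at 0.113 CPM. Prrx1 stood at 51.4 CPM, with 77.4 CPM in Cardiopharyngeal Mesoderm, and Foxc1 at 121 CPM, with 222 CPM in Late Anterior PSM. Msc, a regulator of head muscle, was at 0. Markers of other types were lower but not all absent. The 39 Hox genes summed to 39.4 CPM against 1981 CPM in neuromesodermal progenitors (NMPs), with 31 of 39 below 1 CPM and 9 at 0. Over gastruloids with at least 10 head mesoderm cells, the Hox sum ran from 62.2 to 147 CPM in MULTI-seq 1. In MULTI-seq 2 and 3 it ran from 18.8 to 66.4 CPM.

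Cardiopharyngeal genes summed to 135 CPM (556 CPM in Late Nascent Mesoderm), somite genes to 368 CPM (1720 CPM in Somites) and presomitic genes to 74.3 CPM (2380 CPM in Late Posterior PSM). Within the somite list Tcf15, a somite epithelial factor, stood at 254 CPM, and Meox1, which sets somite identity, at 13.1 CPM. Endoderm genes summed to 88.3 CPM (5027 CPM in Mature Endoderm), with Sox17 at 0.396 CPM, and endothelial genes to 92.7 CPM (2460 CPM in Endothelium), with Tie1 at 0. Neural crest genes summed to 24.0 CPM, 6 of 8 below 1 CPM, with Sox10 at 0.0377 CPM. Neural genes summed to 482 CPM (5852 CPM in Neurons), of which Crabp1, a retinoic acid binding protein, gave 389 CPM, and Olig2 was at 0.

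The median head mesoderm cell held 11262 UMIs in MULTI-seq 1 and 19835 to 34707 UMIs in the groups and lanes of MULTI-seq 2 and 3. Mitochondrial UMIs were a median of 2.09% to 2.27% in MULTI-seq 3 and 5.13% to 5.51% in MULTI-seq 1 and 2. By gastruloid barcode, 1350 of the cells belonged to a single gastruloid, 107 were called doublets, 4 negative and 153 unidentifiable. The cells without any gastruloid call were those of the 10X day 4 lane (48 cells) and of pool C of MULTI-seq 2 (105 cells). Doublet calls made up 13.2% of head mesoderm cells and 9.5% of all cells in the later pool of MULTI-seq 3 (days 4.5 and 5). They made up 5.81% and 5.69% in its earlier pool, and 6.76% and 7.44% in the B pool of MULTI-seq 2. Between them, lanes shared at most 15 cell barcodes, and 0 among head mesoderm cells.

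The share of head mesoderm cells was compared over gastruloids, which are the replicates here. At day 3 and day 3.5 of MULTI-seq 3 there were 0 such cells in 24 and 16 gastruloids. At day 4 of MULTI-seq 3 the cells made up 4.59% ± 7.90 (SD, n = 16) of a gastruloid, with a lowest share of 0%, a median of 0.363% and a highest of 26.3%. The cells were thus concentrated in few gastruloids. The next shares were 20.1% and 10.4%, 7 of 16 gastruloids held none, and 2 gastruloids held 63.4% of the 730 cells of that day. The gastruloid with the highest share had between 23.7% and 28.7% in each of the 4 lanes over which its pool was split.

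At day 4.5 of MULTI-seq 3 the share was 1.51% ± 2.08 (SD, n = 16), with a median of 0.412% and a highest of 7.17%. At day 5 it was 2.25% ± 2.69 (SD, n = 16), with a median of 1.25% and a highest of 7.90%, and 12 of 16 gastruloids held at least 1 cell. In MULTI-seq 2 the share was 1.20% ± 1.98 (SD, n = 11) at day 4 and 4.82% ± 6.37 (SD, n = 12) at day 4.5, with highest values of 5.58% and 20.1%. In MULTI-seq 1 it was 1.19% ± 2.15 (SD, n = 24) at day 5, with a highest of 7.95%. In each of these 6 groups the lowest share was 0%, so the groups overlapped.

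Without gastruloid calls, 48 of 2440 cells (1.97%, exact Clopper-Pearson 95% interval 1.45% to 2.60%) of the 10X day 4 lane were head mesoderm. In the 10X day 3 lane there were 0 of 3058 cells, and in the lanes of pool C 1.98% and 2.16%. These intervals cover counting error only.

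The appearance of the cells between day 3.5 and day 4 of MULTI-seq 3, within one pool, passed the permutation test (difference 4.59 percentage points, adjusted p = 0.00148, above the day 3.5 median in 9 of 16 gastruloids). In that comparison 17 of 25 types (68%) were called, so the call is one of many. As a share of mesodermal cells only, the difference was 6.57 percentage points (permutation test, adjusted p = 0.123), which did not pass. Here and below, shares of mesodermal cells used gastruloids with at least 30 such cells and adjusted over mesodermal types only. The gastruloids and the adjustment were thus not those of the test above, so more than the scale changed. Day 5 minus day 4.5, the other comparison within a pool of MULTI-seq 3, gave 0.741 percentage points (permutation test, adjusted p = 0.673, 25% of types called). Day 4.5 minus day 4 in MULTI-seq 2 gave 3.62 percentage points (adjusted p = 0.128, 33.3% called), and as a share of mesodermal cells 7.67 percentage points (adjusted p = 0.025).

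Between pools of MULTI-seq 3, where day and pool cannot be told apart, day 4.5 minus day 4 gave -3.08 percentage points (permutation test, adjusted p = 0.226, 64% of types called). Day 5 minus day 4 gave -2.34 (adjusted p = 0.367, 68% called). These comparisons share their day 4 gastruloids. Between experiments, MULTI-seq 3 minus MULTI-seq 1 at day 5 gave 1.07 percentage points (permutation test, adjusted p = 0.488, 4.35% called). MULTI-seq 3 minus MULTI-seq 2 gave 3.39 at day 4 (adjusted p = 0.556) and -3.31 at day 4.5 (adjusted p = 0.253, unadjusted p = 0.0506). In each of these 2 comparisons 0 of 25 types (0%) were called by the permutation test and 0 by edgeR, with 4 types at an unadjusted permutation p under 0.05. As a share of mesodermal cells the last was -7.26 percentage points (adjusted p = 0.0268). Apart from the appearance at day 4, no difference in the share of all cells passed the permutation test. That difference was itself smaller than the SD between the day 4 gastruloids (4.59 against 7.90 percentage points), of which 7 of 16 held none of the cells, as at day 3.5.

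**Figure D2:**
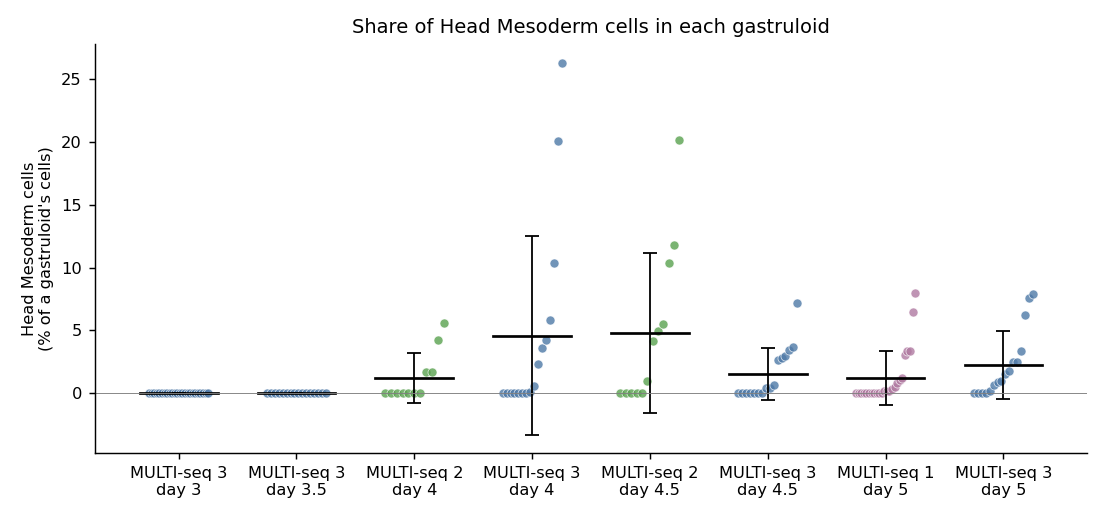
Each point is the percent of a gastruloid's cells named Head Mesoderm, by experiment and day, with the group mean as a line and the SD as a bar. Day 3 and day 3.5 of MULTI-seq 3 sit at 0, and at day 4 a few gastruloids reach 10.4% to 26.3% while 7 of 16 hold none.

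Across gastruloids of 1 age and experiment, the share of head mesoderm was related to that of each other type with a mean of at least 1%, in 82 pairs. Of these, 15 (18.3%) passed a permutation test of Pearson's r, but in 61 of the 82 pairs the shares fell into separate clusters of gastruloids, so only values without such clusters, or within the largest cluster, are given. Shares of a whole are tied by their sum, and all types of a gastruloid share its library. At day 4.5 of MULTI-seq 3 gastruloids with more head mesoderm held more Mature Somites (n = 16, r = 0.870, permutation p = 1e-05, the smallest the resamples allow, adjusted 0.00041, rho = 0.936 with the same p values). Leaving out the 2 gastruloids whose share lay farthest from the median gave r = 0.906, and with the somite share taken among the remaining cells it was 0.885. Those gastruloids held less Early Spinal Cord (n = 16, r = -0.713, permutation p = 0.00126, adjusted 0.0129, rho = -0.869, permutation p = 3e-05, adjusted 0.000492), with r = -0.70 without the 2 farthest and -0.710 among the remaining cells. Mature Endoderm gave r = 0.622 (permutation p = 0.0135, adjusted 0.0584) and rho = 0.904 (permutation p = 3e-05, adjusted 0.000492) in the same gastruloids, with r = 0.697 without the 2 farthest. In MULTI-seq 2 at day 4.5 Mature Endoderm gave r = 0.788 (n = 12, permutation p = 0.00397, adjusted 0.0271) and rho = 0.869 (permutation p = 0.0005, adjusted 0.00456), with r = 0.627 without the 2 farthest gastruloids. On rho alone, Somites passed at day 4.5 of MULTI-seq 3 (n = 16, rho = 0.759, permutation p = 0.00133, adjusted 0.00839, r = 0.562, permutation p = 0.0199, adjusted 0.0769, r = 0.640 without the 2 farthest), and so did Late Neurectoderm there (rho = -0.591, permutation p = 0.0182, adjusted 0.0453, r = -0.28, permutation p = 0.123, adjusted 0.240, r = -0.29 without the 2 farthest). At day 4.5 of MULTI-seq 2 (n = 12) Caudal Neurectoderm (rho = -0.747, permutation p = 0.00775, adjusted 0.0244, r = -0.52, permutation p = 0.0742, adjusted 0.174, r = -0.59 without the 2 farthest) and Late Anterior PSM (rho = 0.723, permutation p = 0.0113, adjusted 0.0339, r = 0.481, permutation p = 0.113, adjusted 0.231, r = 0.505 without the 2 farthest) did so too.

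Within the largest cluster 57 pairs could be tested. Mature Endoderm gave r = 0.863 over 13 gastruloids of MULTI-seq 3 at day 5 (permutation p = 0.00017, adjusted 0.00485) with rho = 0.850 (permutation p = 0.00048, adjusted 0.0167). In MULTI-seq 1 at day 5 it gave r = 0.826 over 21 gastruloids (permutation p = 5e-05, adjusted 0.00285) with rho = 0.675 (permutation p = 0.00112, adjusted 0.0167). Mature Somites gave r = 0.820 over 13 gastruloids of MULTI-seq 3 at day 4 (permutation p = 0.00238, adjusted 0.0271) with rho = 0.855 (permutation p = 0.00117, adjusted 0.0167). Early Spinal Cord did not pass at day 5 of MULTI-seq 3 (r = -0.625 over 13 gastruloids, permutation p = 0.0216, adjusted 0.0948, rho = -0.535, permutation p = 0.0618, adjusted 0.160). At day 4 of MULTI-seq 3 it gave r = 0.320 over 12 gastruloids (permutation p = 0.317, adjusted 0.539, rho = 0.116, permutation p = 0.724, adjusted 0.860). In MULTI-seq 1 it gave r = -0.074 over 22 gastruloids (permutation p = 0.744, adjusted 0.853, rho = 0.061, permutation p = 0.786, adjusted 0.877). For the other two types the remaining groups did not pass on r. Mature Somites gave r = 0.385 over 22 gastruloids of MULTI-seq 1 (permutation p = 0.0725, adjusted 0.188) with rho = 0.593 (permutation p = 0.00456, adjusted 0.0289). They gave r = 0.659 over 13 gastruloids of MULTI-seq 3 at day 5 (permutation p = 0.0156, adjusted 0.0809) with rho = 0.599 (permutation p = 0.0340, adjusted 0.0928). Mature Endoderm gave r = 0.516 over 14 gastruloids of MULTI-seq 3 at day 4 (permutation p = 0.0510, adjusted 0.162) with rho = 0.716 (permutation p = 0.0061, adjusted 0.0348). The clustered pairs of these 3 types in MULTI-seq 2, with at most 9 gastruloids in the largest cluster, did not pass either. Of other types, Endothelium passed on r and rho at day 5 of MULTI-seq 3 (r = 0.852 over 13 gastruloids, permutation p = 0.00032, adjusted 0.00608, rho = 0.822, permutation p = 0.00095, adjusted 0.0167). Late Anterior PSM passed on r at day 4 of MULTI-seq 3 (r = 0.785 over 14 gastruloids, permutation p = 0.00159, adjusted 0.0227, rho = 0.679, permutation p = 0.00991, adjusted 0.0514). Others passed on rho alone. Somites did so in MULTI-seq 1 (rho = 0.605 over 22 gastruloids, permutation p = 0.00377, r = 0.402, permutation p = 0.0639, adjusted 0.180) and in MULTI-seq 3 at day 4 (rho = 0.761 over 14 gastruloids, permutation p = 0.00278, r = 0.583, permutation p = 0.0267, adjusted 0.109) and day 5 (rho = 0.758 over 13 gastruloids, permutation p = 0.00411, r = 0.722, permutation p = 0.00531, adjusted 0.0504). Primitive Streak did so at day 4 of MULTI-seq 3 (rho = -0.739 over 14 gastruloids, permutation p = 0.00399, r = -0.57, permutation p = 0.0309, adjusted 0.117). The adjusted p of rho was 0.0289 in each of these. The relations to Mature Somites and Mature Endoderm thus passed in some groups and not in others.

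**Figure D3:**
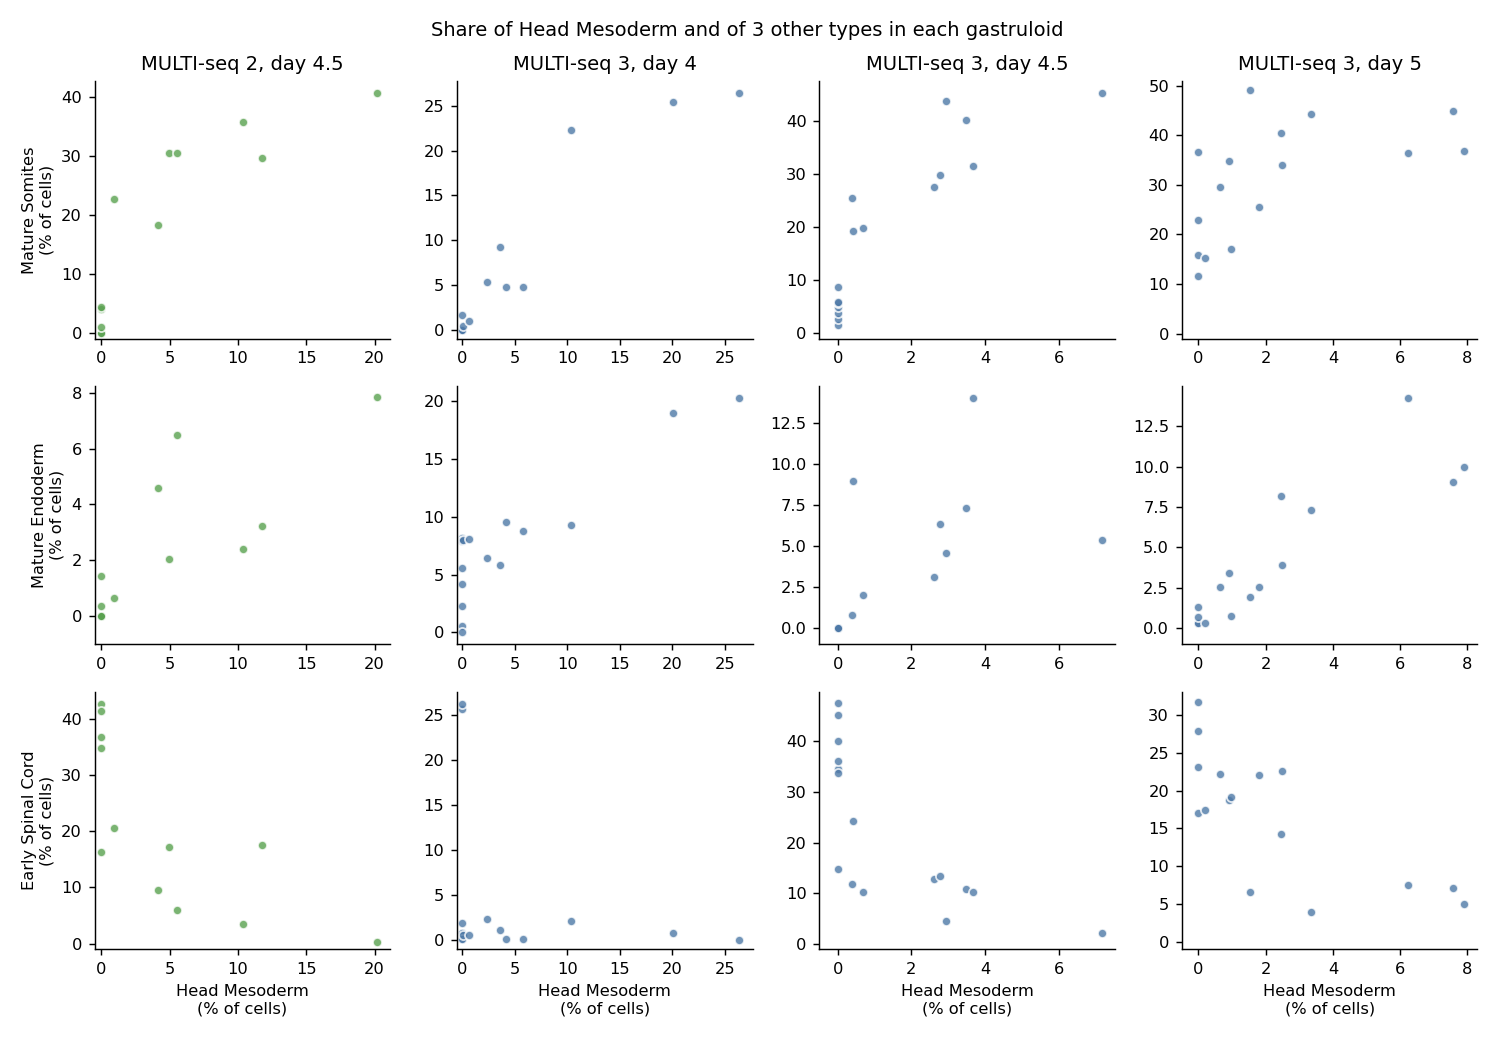
Each point is a gastruloid, with its percent of Head Mesoderm cells on the horizontal axis and its percent of Mature Somites, Mature Endoderm or Early Spinal Cord on the vertical axis, in 4 groups. At day 4.5 of MULTI-seq 3 the somite share climbs with that of Head Mesoderm (r = 0.870) and the spinal cord share declines (r = -0.713).

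The authors also mapped each cell to a type and stage of an embryo reference, and these labels differed within the cluster. The most frequent were Paraxial mesoderm (441 cells, 27.3%), Cranial mesoderm (290 cells, 18.0%) and Anterior somitic tissues (267 cells, 16.5%). The label Cranial mesoderm was also carried by 583 cells of Mature Somites and 34 of Cardiopharyngeal Mesoderm. By stage, 733 cells (45.4%) were mapped to embryonic day 9.25, 310 to day 8.0 and 254 to day 7.5. Both sets of labels rest on the same expression values as the clusters.

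Over gastruloids with at least 10 head mesoderm cells, the share mapped to Paraxial mesoderm ran from 22.0% over a median of 64.0% to 85.7% at day 4 of MULTI-seq 3 (n = 7). At day 5 it ran from 0% over a median of 0% to 4.17% (n = 7), with no overlap. The difference of -61.3 percentage points had an exact permutation p of 0.000583, the smallest possible, and an adjusted p of 0.00437 over 15 such tests, which were chosen after seeing the data. Within one pool, the 3 gastruloids of day 4.5 had 6.25%, 27.3% and 27.3%, all above the 7 of day 5 (difference -18.9 percentage points, exact permutation p = 0.00833, the smallest possible, adjusted 0.0313). These 3 gastruloids held 16, 11 and 11 head mesoderm cells, and the 4.17% of day 5 came from a gastruloid with 24. The lack of overlap there rests on the label of a single cell. The share mapped to Cranial mesoderm ran from 1.75% over a median of 4.00% to 13.6% at day 4 and from 15.9% over 29.4% to 58.3% at day 5, again with no overlap (exact permutation p = 0.000583, adjusted 0.00437, n = 7 each). The share mapped to embryonic day 9.25 averaged 22.6% at day 4 and 58.98% at day 5 (exact permutation p = 0.0035, adjusted 0.0175, n = 7 each), and here the groups overlapped. Within the pool of days 4.5 and 5 neither Cranial mesoderm (day 5 minus day 4.5 of 8.37 percentage points, exact permutation p = 0.492, adjusted 0.527) nor embryonic day 9.25 (24.1 percentage points, exact permutation p = 0.1, adjusted 0.146) passed, with overlapping groups (n = 7 and 3). In MULTI-seq 1 at day 5 Cranial mesoderm ran from 11.8% to 22.2% (n = 4), overlapping the day 4 values of MULTI-seq 3.

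The gastruloids of day 4 were not alike in these labels. The 2 with most head mesoderm cells (264 and 199) had the lowest shares of Paraxial mesoderm, 22.0% and 46.2%, and the highest of Cranial mesoderm, 12.1% and 13.6%. Their Igfbp5 stood at 443 and 313 CPM, while the other 5 gastruloids lay between 27.0 and 118 CPM. Their Tbx1, a T-box factor of pharyngeal mesoderm, stood at 25.4 and 27.5 CPM, below the 42.2 to 85.9 CPM of the other 5. These are descriptions of single gastruloids of 1 pool.

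**Figure D4:**
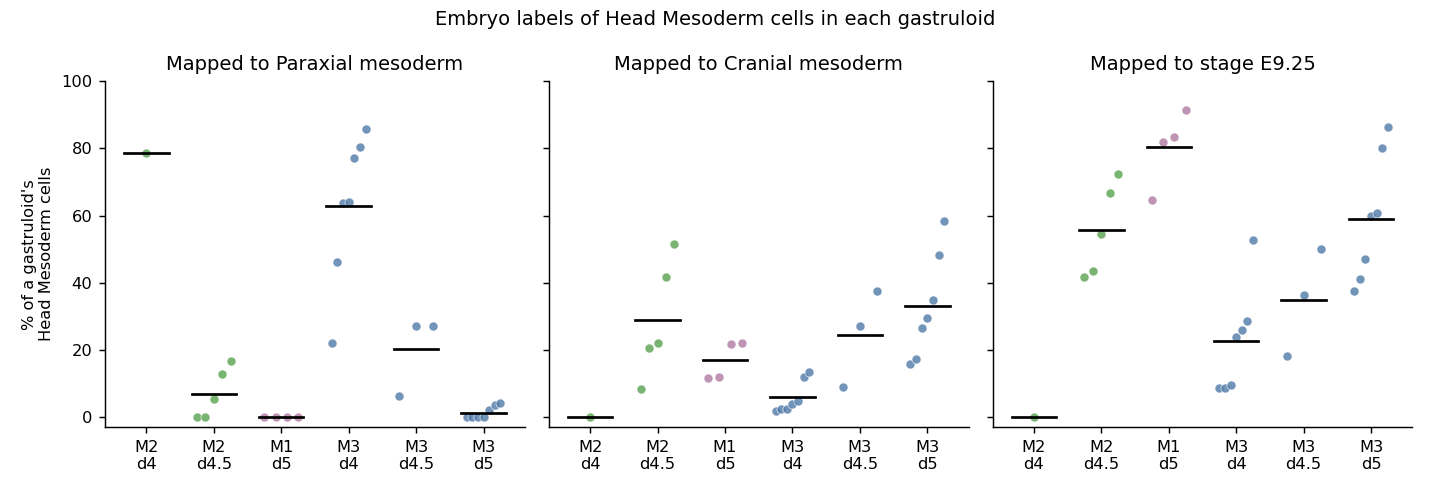
Each point is the percent of a gastruloid's Head Mesoderm cells mapped by the authors to Paraxial mesoderm, Cranial mesoderm or embryonic day 9.25, by experiment (M1 to M3 for MULTI-seq 1 to 3) and day, over gastruloids with at least 10 such cells, and the line is the mean. In MULTI-seq 3 the Paraxial mesoderm points run from 22.0% to 85.7% at day 4 and stay at or below 4.17% at day 5.

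Genes within the head mesoderm cells were tested on sums per gastruloid with edgeR's quasi-likelihood test and Benjamini-Hochberg adjustment over all genes. In such sums fewer expressing cells and less RNA per cell cannot be told apart. From day 4.5 to day 5 of MULTI-seq 3, within one pool (3 against 7 gastruloids, 38 against 222 cells), 11 of 6542 genes rose (0.168%) and 9 fell (0.138%). Of the called genes 55% were higher at day 5, against 20% to 34.8% without 1 gastruloid of day 4.5, 35.7% without lane B and 39.6% without the gastruloid of most cells in each group. Cxcl12, a chemokine of migrating mesenchymal cells, stood at 0, 5.95 and 6.14 CPM in the gastruloids of day 4.5, and from 31.6 over a median of 65.2 to 98.8 CPM in those of day 5. All 7 later gastruloids lay above the 3 earlier ones (log2 fold change 3.91 ± 0.63 SE, adjusted p = 0.00493). Nr2f1, an orphan nuclear receptor of patterning in the head, stood at 2.97, 4.09 and 5.62 CPM and then from 18.4 over 39.9 to 83.1 CPM, with no overlap (log2 fold change 3.32 ± 0.63 SE, adjusted p = 0.0221). The day 4.5 sums held 336400 to 489016 UMIs per gastruloid, so both genes stood at a few UMIs at most there. The size of both fold changes thus rests on values near the detection limit.

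Flrt3, which encodes an adhesion molecule, stood at 11.9, 22.5 and 33.7 CPM at day 4.5 and from 50.9 over 62.9 to 111 CPM at day 5 (log2 fold change 1.51, adjusted p = 0.0221). Also higher without overlap were Nefl, a neurofilament subunit (1.499), Ebf2, a mesenchymal transcription factor (1.35), and the imprinted genes Mest (1.14) and Igf2 (0.94). These are differences within MULTI-seq 3. At day 4.5 of MULTI-seq 2, Ebf2 stood at 51.5 to 78.2 CPM, Flrt3 at 32.6 to 60.6 CPM, Nefl at 94.5 to 298 CPM, Igf2 at 176 to 522 CPM and Nr2f1 at 6.01 to 54.2 CPM, each overlapping the day 5 values of MULTI-seq 3. Mest at 51.5 to 127 CPM and Cxcl12 at 2.57 to 12.03 CPM stayed below them. Tbx1 fell, from 19.7, 30.7 and 38.6 CPM to a range of 7.87 to 14.1 CPM with a median of 10.3 (log2 fold change -1.52, adjusted p = 0.0396), and so did Myl7, an atrial myosin light chain (-2.63, adjusted p = 0.0433, groups overlapping). Elmo1, Mid1ip1, Dapk1 and Ifitm1 fell by 2.02, 1.78, 1.28 and 1.22 on the log2 scale, and Ppp1r1a, a phosphatase inhibitor, by 2.16 with overlapping groups. AY036118 (-1.45) and Gm42418 (-0.77), gene models that overlap ribosomal RNA, fell as well.

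Of the head mesoderm list 11 of 18 genes could be tested, and 1 rose and 1 fell, with a median log2 fold change of 0.56 against 0.00 over all genes tested. The 3 markers did not pass (Twist1 0.21, Prrx2 -0.06, Foxc2 -0.26). Few cells stand behind the day 4.5 values. Without 1 of its 3 gastruloids the count of called genes ran from 5 to 46 (46, 7 and 5 without replicate 1, 2 and 3), and in each of these fits Tbx1 (adjusted p = 0.0627 to 0.338) missed the threshold. Elmo1 and AY036118 were the 2 of 17 named genes called under all 9 alternatives, and Cxcl12 was called under 8 of 9.

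Day 5 against day 4 of MULTI-seq 3 (7 against 7 gastruloids, 222 against 724 cells) compares 2 pools, so day and pool cannot be told apart, and it shares its day 5 gastruloids with the comparison above. Of 8708 genes, 1671 rose (19.2%) and 1606 fell (18.4%). Of the called genes 51.0% were higher at day 5, against 44.6% without a filter on low counts. Of the head mesoderm list, Tbx1 included, 11 of 18 genes were tested, of which 8 were higher and 2 lower. Their median log2 fold change was 0.94 against -0.01 over all genes tested. The members were chosen with earlier results of these data known, so these values describe the genes and are no test of the list. Foxl2, a forkhead factor of head mesenchyme, went from a range of 0.954 to 9.89 CPM (median 2.05) to one of 13.5 to 40.9 CPM (median 30.9), with no overlap (log2 fold change 2.48 ± 0.31 SE, adjusted p = 2.13e-06). Prrx1 went from a range of 20.2 to 45.1 CPM (median 32.97) to one of 50.3 to 109 CPM (median 60.8), also without overlap (1.22 ± 0.16 SE, adjusted p = 4.48e-06). Eya2, a transcriptional coactivator, rose by 1.70, Snai2 by 0.94, Eya1 by 0.62 and Foxc1 by 0.38 on the log2 scale.

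The other 2 genes of the list that changed went down, and 1 of them, Tbx1, is also used by cardiopharyngeal mesoderm. Tbx1 ran from 25.4 over 43.0 to 85.9 CPM at day 4 and from 7.87 over 10.3 to 14.1 CPM at day 5, with no overlap (log2 fold change -2.07 ± 0.34 SE, adjusted p = 4.66e-05). Alx1 ran from 142 over a median of 220 to 290 CPM at day 4 and from 32.1 over 84.9 to 182 CPM at day 5, with overlap (-0.87 ± 0.24 SE, adjusted p = 0.0061). Of the markers, Prrx2 rose by 0.24 (adjusted p = 0.0319, 182 to 271 CPM at day 4 against 230 to 319 CPM at day 5), a call lost in 4 of 13 alternatives. Twist1 (0.08, adjusted p = 0.422) and Foxc2 (0.22, adjusted p = 0.0780) did not pass.

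Among called genes with a mean of at least 20 CPM, the largest rises were in S100a6, a calcium binding protein, Cxcl12, Nr2f1, Ets1, a factor of mesenchyme and vessels, Igfbp5, Nefl, Flrt3 and Nr2f2, an orphan nuclear receptor of mesenchyme. S100a6 stood at 1.79 to 13.8 CPM (median 3.08) at day 4 and at 52.5 to 257 CPM (median 104) at day 5 (log2 fold change 4.09 ± 0.35 SE, adjusted p = 1.03e-08). Igfbp5 stood at 27.0 to 443 CPM (median 64.3) and then at 699 to 1659 CPM (median 1071; 2.74 ± 0.40 SE, adjusted p = 1.41e-05). Nr2f2 stood at 17.9 to 33.6 CPM (median 29.6) and then at 83.2 to 255 CPM (median 161; 2.59 ± 0.20 SE, adjusted p = 2.15e-09). In each of these 8 genes all gastruloids of day 5 lay above all of day 4, but they were picked from this same test by the size of their rise. How often this held over all genes tested was not counted.

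**Figure D5:**
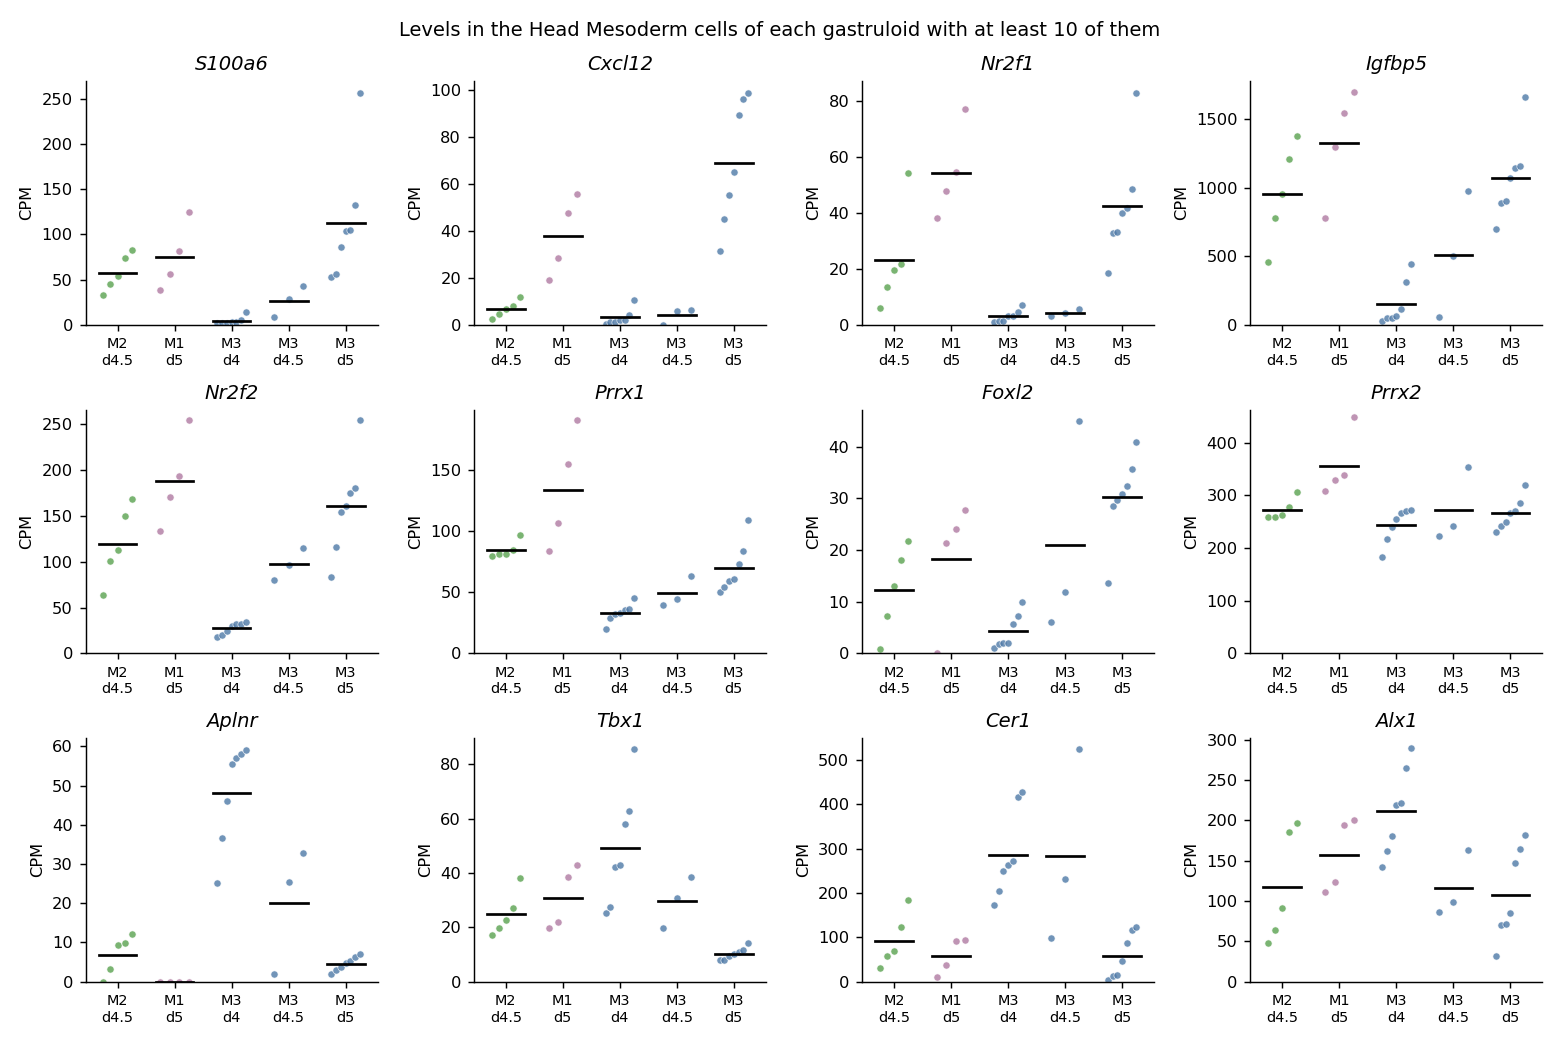
Each point is the level of a gene, in CPM of the UMIs summed over the Head Mesoderm cells of a gastruloid with at least 10 of them, and the line is the group mean. Within MULTI-seq 3, Cxcl12 and Nr2f1 lie higher in each day 5 gastruloid than at days 4 and 4.5, and Tbx1 and Aplnr lie lower at day 5 than at day 4. Across experiments Nr2f1 and Tbx1 overlap between days.

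By the same rule the largest fall was in Aplnr. Aplnr, the apelin receptor of gastrulating mesoderm, ran from 25.3 over 55.4 to 59.2 CPM at day 4 and from 1.93 over 4.72 to 7.07 CPM at day 5, with no overlap (log2 fold change -3.28 ± 0.31 SE, adjusted p = 4.49e-08). Aldh1a2, which makes retinoic acid, fell by 2.99, Phlda2, an imprinted growth regulator, by 2.93, Ptgds, a prostaglandin synthase, by 2.40, Rasgrp3, a Ras activator, by 2.32, Slc45a4, a solute carrier, by 2.02 and Cer1 by 1.98 on the log2 scale. Cer1 ran from 173 over 262 to 429 CPM at day 4 and from 4.38 over 47.5 to 124 CPM at day 5. Of the 14 cardiopharyngeal genes 7 were tested, of which 5 were lower and 1 higher, with a median log2 fold change of -1.28. Over all genes tested 19.2% were higher and 18.4% lower. The filter on low counts can keep a gene through its level in 1 group alone, and members were chosen with earlier results known. These counts are thus no test of the list. Those that fell were Myl7 (-1.77), Mesp1, an early cardiac mesoderm factor (-1.36), Gata6 (-1.29), Mef2c (-1.28) and Isl1 (-1.16), and Tnnt2, cardiac troponin T, rose by 1.68. The summed level of the 14 genes of that list ran from 128 over 184 to 201 CPM at day 4 and from 30.6 over 66.5 to 130 CPM at day 5.

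Of the matrix list 13 of 20 genes were tested, of which 4 rose and 1 fell (median 0.15), beside 19.2% higher and 18.4% lower over all genes, so the share called was near that background. The genes that rose were Col1a2, a fibrillar collagen (1.30), Fbn1 (1.17) and Fbn2 (0.85), which encode fibrillins, and Vcan (0.87), while Sparc, a collagen chaperone, fell by 0.98. Of the mesenchyme list 3 rose and 3 fell of 9 tested. Cdh11 (1.38), Pdgfrb, a growth factor receptor (1.08), and Vim, vimentin (0.81), rose, and Ncam1, Cdh2 and Pdgfra fell by 0.66, 0.29 and 0.25. Of 10 cell cycle genes 0 rose and 3 fell, Ccnd1 by 0.80, Mki67 by 0.63 and Top2a by 0.28.

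The lists that follow are given beside the same 19.2% higher and 18.4% lower over all genes, and no list is read as standing apart from them. Of the BMP list 3 rose and 1 fell of 10 tested. Msx1, a BMP-responsive homeobox gene (2.74), Id2 (1.26) and Bmp7 (0.36) rose and Fst, an activin and BMP antagonist, fell by 1.63. Of the Wnt list the antagonists Sfrp2 (0.77) and Frzb (0.57) rose, and Sp5 (-1.21), Sfrp1 (-1.18) and Lef1 (-0.55) fell, of 9 tested. Of the hedgehog list Gli2 (0.99) and Cdon (0.71) rose and 0 fell, of 7 tested. Of the FGF list Spry1 (0.91) rose and Fgf8 (-1.33) fell, of 7 tested, and of the retinoic acid list Crabp2 (0.68) rose and Aldh1a2 fell, of 5 tested. Of the somite list Meox1 (2.33) and Foxd1 (2.26) rose and Tcf15 (-1.02) and Pax3 (-0.70) fell, all 4 that were tested. Of the dissociation list Ier2 rose by 0.77 and Egr1 and Jun fell by 2.00 and 0.81, of 4 tested. Of the imprinted list Mest (1.99) and Igf2 (1.03) rose and Peg10 fell by 1.33, of 7 tested.

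Markers of other types also differed between these pools. The summed neural list, mostly Crabp1, ran from 360 to 495 CPM at day 4 and from 449 to 1546 CPM at day 5. Of its 3 genes tested, Crabp1 was called higher (1.39) and Irx3 lower, with a median log2 fold change of -0.03. The neural crest list ran from 6.99 to 17.9 CPM and from 19.8 to 89.2 CPM, where Ets1 was the sole gene tested. In the endoderm list Epcam (-1.81) and Krt18 (-0.88) fell and Trh rose by 2.23, and in the endothelial list Kdr rose by 1.36. Median depth was 34707 UMIs per cell at day 4 and 26567 at day 5, and doublet calls were 5.81% and 13.2% of head mesoderm cells in the 2 pools. The part of these values in the gene differences was not tested.

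Day 4.5 against day 4 (3 against 7 gastruloids, 38 against 724 cells), again across pools and sharing the groups above, gave 477 of 9429 genes higher (5.06%) and 204 lower (2.16%). Of the called genes 70.0% were higher at day 4.5, against 46.7% without a filter on low counts, so the majority direction depends on that filter. Of the 11 tested genes of the head mesoderm list 0 passed in edgeR and 0 in DESeq2, with 4 at an unadjusted p under 0.05 (median 0.31 against -0.02 over all genes tested). Alx1 was at 86.2, 98.4 and 164 CPM against 142 to 290 CPM (log2 fold change -0.73, adjusted p = 0.125). Among all lists, those called higher included Msx1 (2.59), Foxd1 (2.22), Spry1, an FGF feedback inhibitor (1.47), Trh (1.40), Cdh11 (1.10) and Bmp7 (0.73), and Krt18 fell by 2.43. Each of these 7 calls was lost without at least 1 of the 3 gastruloids of day 4.5, and Spry1 was called in 4 of the 10 alternatives that gave it an adjusted p. Nr2f2 stood at 80.3, 96.1 and 115 CPM against 17.9 to 33.6 CPM (1.92 ± 0.23 SE, adjusted p = 8.72e-05), without overlap, and Slc13a4, a sulfate carrier, rose by 2.43. Ptn, a heparin-binding growth factor, rose by 1.77, and Timp3, a metalloprotease inhibitor, by 1.80. Without 1 gastruloid of day 4.5 the count of 681 called genes ran from 414 to 434.

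A change called in these cells need not differ from that in neighbouring mesoderm, so the change from day 4 to day 5 was tested against the change in Mature Somites of the same gastruloids (edgeR interaction with the gastruloid as block, 7 against 7). It differed in 1308 of 10343 genes (12.6%), with 696 more positive in head mesoderm and 612 more negative. Mean Prrx1 went from 33.1 to 69.9 CPM in head mesoderm and from 41.4 to 12.9 CPM in Mature Somites (interaction log2 difference 2.50 ± 0.17 SE, adjusted p = 1.58e-11). Mean Prrx2 was 243 and 266 CPM in head mesoderm and 590 and 226 CPM in Mature Somites (1.40 ± 0.10 SE, adjusted p = 1.44e-11). Mean Twist1 was 272 and 259 CPM beside 264 and 185 CPM (0.39 ± 0.08 SE, adjusted p = 0.00141). Both types are expression clusters of these same cells, so the comparison is not independent of how they were defined.

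The same test gave a positive difference for Foxl2 (2.97), Eya2 (1.73), Alx1 (1.48), Six2 (1.48), Snai2 (1.45) and Eya1 (0.74), all of the head mesoderm list. For Alx1 this was a smaller decline, from 212 to 108 CPM in head mesoderm and from 20.7 to 3.59 CPM in Mature Somites. Foxc1 (-0.10) and Tbx1 (0.91) did not pass. Igfbp5 went from 152 to 1074 CPM beside 181 to 322 CPM (1.95 ± 0.15 SE, adjusted p = 1.87e-10), and Cdh11 from 134 to 340 CPM beside 184 to 154 CPM (1.49 ± 0.11 SE, adjusted p = 4.28e-11).

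Of the somite list, Tcf15 (-1.46) and Pax3 (-1.12) had negative differences and Meox1 a positive one (0.92). Hox genes are given as levels without a test, because nearly all were too low in head mesoderm to be tested there, and those named were chosen after their values were seen. Mean Hoxb9, of the posterior trunk, was 0.880 CPM at day 4 and 1.24 CPM at day 5 in head mesoderm, and 1.33 and 96.2 CPM in Mature Somites. Mean Hoxc6 was 0.237 and 0.265 CPM in head mesoderm, and 0.184 and 16.8 CPM in Mature Somites.

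Within the pool of days 4.5 and 5 the interaction passed for 28 of 10428 genes (0.269%). Prrx2 (0.86), Prrx1 (1.16), Nr2f1 (2.68), Crabp1 (2.77), Nefl (1.53) and Igf2 (0.78) were more positive in head mesoderm, and Ppp1r1a (-1.98), AY036118 (-1.82) and Gm42418 (-0.77) more negative. From day 4 to day 4.5 it passed for 13 of 10739 genes (0.121%), among them Nr2f2 (1.13), Cdh11 (0.95) and Trh (3.74). A comparison with Cardiopharyngeal Mesoderm could not be run, because too few gastruloids held at least 10 cells of both types.

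Between experiments, MULTI-seq 3 against MULTI-seq 1 at day 5 (7 against 4 gastruloids, 222 against 91 cells) gave 567 of 6260 genes higher (9.06%) and 396 lower (6.33%). Of the head mesoderm list 3 genes were lower in MULTI-seq 3 and 0 higher of 11 tested. Tbx1 stood at 7.87 to 14.1 CPM against a range of 19.9 to 43.1 CPM (log2 fold change -1.35, adjusted p = 0.00387), and Prrx1 (-0.79, adjusted p = 0.0120) was lower with overlapping groups. In the same comparison 4 of 10 cell cycle genes were lower (Cdk1, Pcna, Ccnb1 and Top2a) and 0 higher. Kdr of the endothelial list (-1.41) and Irx3 of the neural list (-1.19) were lower too. The summed endothelial list ran from 133 to 368 CPM in MULTI-seq 1 and from 59.4 to 164 CPM in MULTI-seq 3, and their part in the other differences was not tested. Twist1 was at 286, 311, 325 and 340 CPM in the 4 gastruloids of MULTI-seq 1 and from 216 over 241 to 321 CPM in those of MULTI-seq 3 (-0.14, adjusted p = 0.470). Among called genes with a mean of at least 20 CPM the largest differences included H19, an imprinted non-coding RNA (-4.998), mitochondrial transcripts such as mt-Nd3 (-2.44) and histone genes such as Hist1h4h (5.12). Peg10 was higher by 0.99. Experiment, depth (median 26567 against 11262 UMIs per cell) and mitochondrial share (2.09% against 5.41%) cannot be told apart here. Against Mature Somites 1 of 9639 genes differed (0.0104%), Pgk1, a glycolytic enzyme (-0.67), and 529 did so at an unadjusted p under 0.05.

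MULTI-seq 3 against MULTI-seq 2 at day 4.5 (3 against 5 gastruloids, 38 against 150 cells) gave 210 of 5445 genes higher (3.86%) and 120 lower (2.2%). Twist1 was lower in MULTI-seq 3, with 202, 209 and 273 CPM against 298, 316, 317, 319 and 344 CPM and no overlap (log2 fold change -0.50 ± 0.12 SE, adjusted p = 0.0154). The call was lost without replicate 1 or 3 of the 3 gastruloids of MULTI-seq 3 (-0.43 and -0.42, adjusted p = 0.0758 and 0.0996) and without the gastruloid of most cells in each group (-0.42, adjusted p = 0.135). Snai2 (-0.84) and Prrx1 (-0.75) were lower as well, and Tcf15 (0.99) and Crabp2 (0.77) higher. Vim (-0.79) and Id1 (-1.13) were also lower, and so was Kdr of the endothelial list, at 50.6 to 59.5 CPM against 33.1 to 173 CPM (-1.04). Some of these calls were unstable. Kdr kept its call in 4 alternatives and lost it in 9, Tcf15 in 7 and 6, and Prrx1 in 8 and 5. Crabp2 lost its call in 3, Snai2 and Id1 in 2 each, and Vim in 0. The summed endothelial list ran from 87.2 to 104 CPM in MULTI-seq 3 and from 66.2 to 287 CPM in MULTI-seq 2. Experiment and mitochondrial share (2.27% against 5.13%) cannot be told apart here, and the part of the endothelial genes was not tested. By the same rule the largest differences included Pfn1, an actin monomer binding protein, at 1243, 1376 and 1513 CPM against 86.1 to 113 CPM (3.77), Arf5 (3.59), mt-Atp8 (-3.50) and mt-Nd3 (-3.02). Hes1, a Notch target, was lower as well (-2.18). Against Mature Somites 5 of 9303 genes differed (0.0537%), among them Ppp1r1a (1.76) and Has2, which makes hyaluronan (-2.72). With a single gastruloid of at least 10 head mesoderm cells at day 4 of MULTI-seq 2, no gene test was made there. That gastruloid held Twist1 at 294 CPM, Alx1 at 118 CPM, Aplnr at 60.7 CPM, Cxcl12 at 1.90 CPM and Igfbp5 at 13.3 CPM, while the 5 of day 4.5 had Igfbp5 between 459 and 1376 CPM and Aplnr between 0 and 12.3 CPM.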

How the data were processed

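Single-cell RNA-seq was made with the 10x Genomics 3' v3.1 chemistry, per the labels' protocols. Reads were processed with Cell Ranger 6.0.0 and Seurat on mm10, per the submitters' processing notes, and the deposited matrices hold UMI counts per gene and cell. Cell types, embryo labels and gastruloid calls are the authors' deposited cell table, whose mitochondrial fraction was used here as a percent, and 64 of its columns were not used. Of 22 samples listed, 18 had matrices with 32285 features, and the MULTI-seq 2 pools of days 3 and 3.5 were not analysed here. Lane medians were 8287 to 38443 UMIs per cell, and 9 cells of the table had no matrix column.

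Gastruloids are the replicates and lanes are technical splits. Cells without a single gastruloid call, barcode doublets included, were left out of tests over gastruloids. Shares used gastruloids of at least 30 cells, with permutation tests (100000 resamples, two-sided, or exact for groups under 10) adjusted over cell types by Benjamini-Hochberg. Gene tests used UMI sums of gastruloids with at least 10 head mesoderm cells, at least 3 per group, with edgeR 4.0.16 (quasi-likelihood, TMM, filterByExpr, adjusted p under 0.05) in R 4.3.3, and DESeq2 1.42.0 as an alternative. CPM are raw, while log2 fold changes are after TMM scaling. Clusters of gastruloids were set apart by a gap over 0.333 of the range. Python 3.11.15 with scipy 1.17.1, pandas 2.3.3, numpy 2.4.6 and matplotlib 3.10.9 did the rest.

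Named genes were the 3 markers, the 20 genes by ratio (at least 50 CPM), the 8 called genes of largest change in each direction with a mean of at least 20 CPM, and members of 22 lists, a few of which are not reported here. Members and lists were chosen with earlier results of these data known. Tested on simulated data at the size of day 5 against day 4.5 (6542 genes), edgeR called 99 of 100 genes changed 4-fold and 65 of 100 changed 2-fold. Simulated as day 4.5 against day 4 (9429 genes) the counts were 85 and 50 of 100. Alternatives were scaling, tool, filters on genes and cells, lanes and gastruloids left out, and other share scales.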

Additional observations from a re-analysis of the deposited data

Results flagged for a closer look

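Tests of single gastruloids covered 31 of the named genes, mostly those of largest change, and the shares of embryo labels. They used Dixon's ratio of gap to range in groups of at least 4 gastruloids, so day 4.5 of MULTI-seq 3 was left out. In 10 of 134 such tests, 1 gastruloid stood far from the others of its group. For normal values chance gives about 1 in 20, but CPM and percents need not be normal. At day 4 of MULTI-seq 3 (7 gastruloids) the flagged values were Cxcl12 at 10.4 CPM with 4.34 CPM next, Flrt3 at 19.8 CPM with 10.8 CPM next, and S100a6 at 13.8 CPM with 5.65 CPM next. At day 5 of MULTI-seq 3 (7 gastruloids) they were Flrt3 at 110.8 CPM with 67.1 CPM next, Phlda2 at 21.2 CPM with 7.09 CPM next, Ppp1r1a at 440.9 CPM with 175 CPM next, and S100a6 at 257 CPM with 132 CPM next. At day 5 of MULTI-seq 1 (4 gastruloids) they were Ets1 at 55.7 CPM with 29.97 CPM next, and Phlda2 at 4.78 CPM with 0 next, which is at the detection limit. At day 4.5 of MULTI-seq 2 (5 gastruloids) Mid1ip1 stood at 42.4 CPM with 24.1 CPM next.

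The day effect differed between head mesoderm and Mature Somites in 21 cases among the 31 genes looked at (edgeR's interaction test, adjusted p under 0.05). These cases cover the comparisons of day 5 with day 4.5 and with day 4, where 0.269% and 12.6% of all genes tested passed. The genes looked at were mostly picked for a large day change in head mesoderm, so the count of 21 is no result about them as a set. From day 4 to day 4.5, which this count leaves out, Nr2f2 (1.13) and AY036118 (1.34) also passed. From day 4.5 to day 5 the log2 difference was positive for Nr2f1 (2.68), Slc45a4 (1.92), Nefl (1.53), Prrx2 (0.86) and Igf2 (0.78). It was negative for Ppp1r1a (-1.98), AY036118 (-1.82) and Gm42418 (-0.77). From day 4 to day 5 it was positive for S100a6 (3.74), Nefl (2.41), Igfbp5 (1.95), Slc45a4 (1.84), Nr2f2 (1.52), Alx1 (1.48), Prrx2 (1.40), Igf2 (1.36) and Flrt3 (1.26). It was also positive for Nr2f1 (1.08), Ets1 (0.82) and Twist1 (0.39), and negative for Phlda2 (-1.51).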

How the results depend on the processing

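As a share of mesodermal cells, the head mesoderm difference between day 4 and day 3.5 was 6.57 percentage points and no longer passed (adjusted p = 0.123), while day 4.5 minus day 4 in MULTI-seq 2 (7.67) and MULTI-seq 3 minus MULTI-seq 2 at day 4.5 (-7.26) passed. Those tests kept gastruloids with at least 30 mesodermal cells and adjusted over mesodermal types only, so more than the scale changed. On a centred log ratio, day 5 minus day 4 turned to 1.00 and did not pass either way. Of the counts of called genes, 20 for day 5 against day 4.5 became 118 without a filter on low counts, 44 with a minimum of 5 cells, 48 without the gastruloid of most cells in each group, and 5 to 46 without 1 gastruloid. The 681 for day 4.5 against day 4 became 1363 with a minimum of 5 cells and 414 to 434 without 1 gastruloid of day 4.5. The 963 for MULTI-seq 3 against MULTI-seq 1 became 484 with a minimum of 20 cells and 602 without the top gastruloids. The 330 for MULTI-seq 3 against MULTI-seq 2 became 608 with a minimum of 5 cells, 212 without the top gastruloids and 176 to 325 without 1 gastruloid (176 and 199 without replicates 2 and 3 of MULTI-seq 3, 219 and 208 without replicates 2 and 3 of MULTI-seq 2). In the comparison of MULTI-seq 3 and 1 with Mature Somites, 5 genes in place of 1 were called with DESeq2 size factors. On square-root shares 29 relations passed in place of 15. The cause was not tested.

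Without a filter on low counts, 46.7% of called genes were higher at day 4.5 than at day 4, against 70.0% with it, and 74.6% were higher in MULTI-seq 3 than in MULTI-seq 1, against 58.9%. With that setting the median log2 fold change of all genes was -0.35 in place of -0.02 for day 4.5 against day 4, -0.14 in place of -0.01 for day 5 against day 4, 0.14 in place of 0.00 for day 5 against day 4.5 and 0.14 in place of -0.03 for MULTI-seq 3 against 1.

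Markers that were not called changed sign in some settings. Without 1 gastruloid, Foxc2 ran from -0.60 to 0.31 and Prrx2 from -0.19 to 0.19 for day 5 against day 4.5, and Foxc2 from -0.10 to 0.80 for day 4.5 against day 4. Foxc2 ran from -0.34 to 0.06 for MULTI-seq 3 against 1, and Foxc2 from -0.090 to 0.81 and Prrx2 from -0.23 to 0.16 for MULTI-seq 3 against 2. From day 4.5 to day 5, Prrx2 was 0.19 without replicate 1 of day 4.5 and 0.24 without the top gastruloids, and Foxc2 was 0.31 without replicate 3. From day 4 to day 4.5, Foxc2 was -0.10 without replicate 3. Between MULTI-seq 3 and 1, Foxc2 was 0.035 with a minimum of 20 cells and 0.060 without replicate 2 of MULTI-seq 1. Between MULTI-seq 3 and 2, Prrx2 was -0.23 without replicate 1 of MULTI-seq 3, -0.0083 and -0.0017 without replicates 3 and 5 of MULTI-seq 2 and -0.24 without the top gastruloids, and Foxc2 was -0.090 without replicate 3 of MULTI-seq 3.

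Of the named genes called, 0 reversed in the alternatives run. Those called under all alternatives run numbered 2 of 17 (day 5 against 4.5), 68 of 78 (day 5 against 4), 4 of 22 (day 4.5 against 4), 18 of 30 (MULTI-seq 3 against 1) and 15 of 26 (MULTI-seq 3 against 2). A minimum of 20 cells was not run for the comparisons with day 4.5 of MULTI-seq 3, nor were lanes A and C left out of day 5 against day 4.5, because fewer than 2 gastruloids of day 4.5 remained. The leading embryo type alone was not run, because outside day 4 no gastruloid of MULTI-seq 3 held 10 such cells. No paired analysis was possible because gastruloid barcodes carry no number shared between groups and lane numbers name technical splits only.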
